A study of Drosophila melanogaster with 3 samples.

Results

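Binding of the zinc-finger transcription factor Spalt-related was examined at 9 genes whose products organise chromatin, namely Trl, psq, Chro, pzg, BEAF-32, CTCF, su(Hw), Cp190 and mod(mdg4). They are 9 of 13945 protein-coding genes on the 6 major chromosome arms, and all 9 symbols were found in the annotation. The measurements are ChIP-seq peaks from whole Drosophila melanogaster prepupae, males and females pooled, of 1 transgenic line that stably expresses salr tagged with GFP at the C-terminal end, with an antibody to GFP used for the precipitation. There is a single group, salr-GFP, with 3 biological replicates of 1 library each, so no condition was compared. Age within the stage is unknown per the labels, and whole animals mix all tissues, so binding in few cells and weak binding in many cells cannot be told apart.

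Insulators and architectural proteins partition chromatin and help to set which enhancers reach which promoters. In Drosophila, GAGA factor (encoded by Trl) and Pipsqueak (psq) are BTB-domain proteins that bind GA-rich DNA, and GAGA factor keeps promoters accessible. BEAF-32, CTCF and Su(Hw) bind insulator DNA directly, and the BTB proteins CP190 and Mod(mdg4) are recruited as cofactors. Chromator (Chro) and Putzig, also called Z4 (pzg), mark the interbands of polytene chromosomes.

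For each gene, summits were taken in its annotated span or within 5 kb of it. The main list is the authors' set of 6485 peaks thresholded by irreproducible discovery rate (IDR), a measure of how alike replicates rank peaks. These 6485 are the strongest entries of the authors' list called on pooled replicates. A listed peak therefore need not recur in each replicate. Signal value is the authors' own score of a peak. It has no stated scale and was used only to rank peaks within a list. In each replicate list of 30000 entries the 6485 best-ranked peaks were used, and a replicate counted as matched when one of these lay within 100 bp of an IDR summit. Library depth is unknown from the lists, and no precision was derived from it.

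Summits lay at 6 of the 9 genes, and most of them were at psq and Trl. The IDR list held 13 summits at psq, 5 at Trl, 2 at mod(mdg4) and 1 each at Chro, BEAF-32 and Cp190. At CTCF, su(Hw) and pzg it held none. The replicates' best-ranked peaks gave 23, 23 and 25 summits over the 9 genes in replicates 1, 2 and 3, or 23.7 ± 1.15 (SD, n = 3), against 23 in the IDR list. Of the 9 genes, 6, 5 and 6 had a summit in replicates 1, 2 and 3. Among all protein-coding genes, 38.8% had an IDR summit under the same rule. The share depended on gene length, with 36.5% for spans under 20 kb and 68.9% for spans of 20 kb or more. By this division 4 of 7 short members had a summit, as did both long ones, psq and mod(mdg4). The genes were chosen with earlier results of these data known, so these counts are a description and carry no test.

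**Figure D1:**
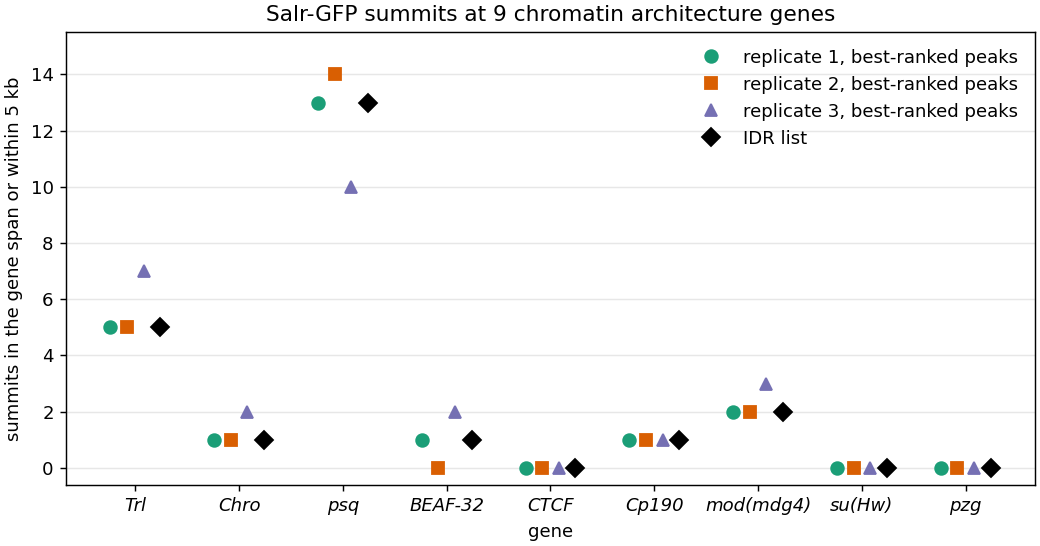
Number of summits in the span of each gene or within 5 kb of it (y axis), for the best-ranked peaks of the 3 replicates (coloured points) and for the IDR list (black diamonds). psq holds 10 to 14 summits and Trl 5 to 7, whereas CTCF, su(Hw) and pzg are at 0 in every list shown.

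A summit within 500 bp of one of the gene's own start sites was present at Trl, Chro, psq, BEAF-32 and Cp190, or 5 of the 9. The replicates gave 5, 4 and 5. Among all protein-coding genes, 12.5% had such a summit. This share was not divided by number of start sites, and a gene with more of them covers more ground. The 5 genes have 2 to 5 start sites each, whereas CTCF, mod(mdg4), su(Hw) and pzg have 1 each. At BEAF-32 and Cp190 the start site nearest to the summit belonged to another gene. Over the 23 summits, 18 had the member's own start site as the nearest one and 5 that of a neighbour. By position, 7 of the 23 were promoter summits of any gene, 15 were intronic and 1 was intergenic. No summit fell in a coding exon or outside the promoter class in a UTR. In the whole IDR list, 29.9% of summits were at promoters and 48.7% in introns.

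Trl, the gene of GAGA factor, carried the strongest summit of the 9 genes, and it lay in an intron and not at a start site. The gene (FBgn0013263, dm6, 3L 14747929 to 14761049, minus strand) has 10 annotated transcripts from 4 start sites. Its strongest summit was at 14759506, with a signal value of 1621 and rank 9 in the IDR list. It lay 1543 bp downstream of the outermost start site, which is that of Trl-RF alone, and 1544 bp upstream of the start site shared by 7 transcripts. The replicates placed this peak at ranks 12, 5 and 15 in replicates 1, 2 and 3, with best-ranked summits 3, 16 and 6 bp away. Counting Trl, 24 protein-coding genes had a strongest summit of at least this signal value, among 5415 genes with any summit and a median of 284. A peak counts for every gene within 5 kb, so the 24 include neighbours with this same peak, such as CG42507. The central 201 bases of this peak are shown because it is the strongest site of the group, and those of the next strongest Trl summit for comparison. Both are on the plus strand of dm6 and lie in introns, at chr3L:14759406-14759606 and chr3L:14755909-14756109. Capitals mark any of the 6 motifs described below, and the first sequence holds none of them.
Trl strongest summit: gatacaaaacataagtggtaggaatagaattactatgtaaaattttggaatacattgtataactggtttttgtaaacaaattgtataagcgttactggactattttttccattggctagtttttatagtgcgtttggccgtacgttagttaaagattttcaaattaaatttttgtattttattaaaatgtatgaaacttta
Trl second summit: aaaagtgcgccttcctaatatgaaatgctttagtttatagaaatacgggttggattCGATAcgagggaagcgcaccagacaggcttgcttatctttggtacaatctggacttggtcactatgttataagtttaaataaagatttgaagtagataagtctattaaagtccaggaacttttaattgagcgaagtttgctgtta

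The remaining Trl summits were weaker and, with 1 exception, recurred in every replicate. The summit at 14756009 had a signal value of 500 and ranks of 532, 658 and 442 in replicates 1, 2 and 3. Its neighbour at 14756210 had 447 and ranks of 637, 863 and 958. These summits lie 201 bp apart, downstream of all start sites, inside the span that Trl shares with CG42507. The promoter summit of Trl, at 14757203, had a signal value of 472 and lay 133 bp downstream of the start of Trl-RJ. Its ranks were 544, 695 and 1068. The last summit, at 14759724, lay in the same peak interval as the strongest one. It had a signal value of 160 and ranks of 1794 and 5182 in replicates 1 and 2. In replicate 3 the entry closest to it ranked 29542, below the best-ranked peaks. Leaving out replicates 1, 2 and 3 in turn kept 4, 4 and 5 Trl summits, a summit being kept if it was matched in both remaining replicates. Peaks were not called again, so this rule restates the matches and is no separate check.

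psq held the most summits, 12 in the span and 1 upstream, and most of them lay towards its 5′ end. Of the 12, 8 were within 11120 bp of the outermost start site and the other 4 were farther into the gene, the last at 43806 bp. The gene (FBgn0263102, 2R 10557888 to 10617280, plus strand) has 15 transcripts from 5 start sites. Its zone held 1.87 IDR summits per 10 kb, against 2.16 at Trl and 0.654 at Chro. At least as many summits lay at 38 of all protein-coding genes, psq included. That count took no account of gene length, and psq spans 59.4 kb. Density was not computed over all genes. No psq summit approached the strongest ones of Trl and Chro. The highest signal value, 455, belonged to an intronic summit at 10564586, 4356 bp upstream of the nearest start site of psq. It ranked 798 and 479 in replicates 2 and 3. In replicate 1 the nearest best-ranked summit was 109 bp away and so was not counted as a match. An intronic summit at 10582274 had a signal value of 450 and lay 1412 bp upstream of the start site shared by 5 transcripts. It ranked 665, 1071 and 545 in replicates 1, 2 and 3. Far inside the gene, a summit at 10601694 had a signal value of 446 and lay 18008 bp downstream of the last start site. Its ranks were 939, 480 and 1118. The nearest start site of any gene was that of CG11883, 15968 bp away.

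The promoter summits of psq marked 2 of its start regions. At 10569008 a summit with a signal value of 425 lay 66 bp downstream of the start of psq-RE and 214 bp upstream of that of psq-RF and psq-RG. It ranked 732, 1391 and 461 in replicates 1, 2 and 3. At 10558305 a summit with a signal value of 363 lay 417 bp downstream of the outermost start site, which serves 6 transcripts. Its ranks of 708, 4520 and 434 put it much lower in replicate 2 than in the others. The other 8 psq summits had signal values of 125 to 289 and were 7 intronic ones and the upstream one at 10553582. Of the 13, 6 were matched in all 3 replicates. Leaving out replicates 1, 2 and 3 in turn kept 7, 7 and 8 psq summits. No sequence of psq or BEAF-32, which lie on 2R, is shown.

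**Figure D2:**
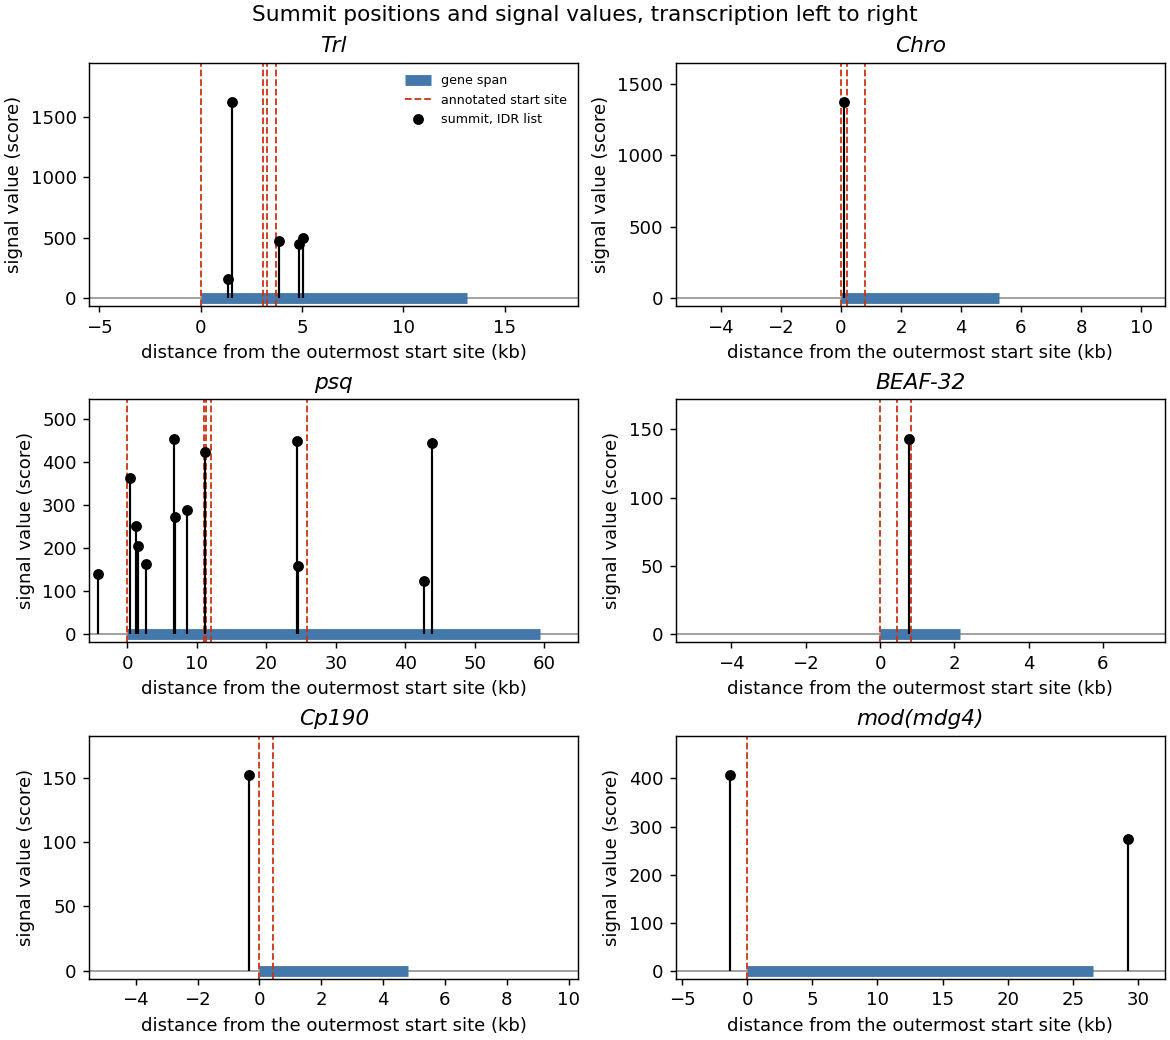
Summits of the IDR list at the 6 genes with any, by distance from the outermost start site in kb (x axis, transcription left to right) and signal value (y axis, a score without unit, scaled per gene). Blue bars are gene spans and dashed lines annotated start sites. The strongest Trl summit (1621) stands between start sites, that of Chro (1373) between its outermost start site and the next, and 8 of the 12 psq summits in the span lie within 11120 bp of its outermost start site.

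Chro, the gene of the interband protein Chromator, had 1 summit, and it was a strong promoter peak in every replicate. The gene (FBgn0044324, 3L 22873702 to 22878984, minus strand) has 5 transcripts from 3 start sites. Its summit at 22878875 had a signal value of 1373 and rank 17 in the IDR list, and ranks of 23, 15 and 14 in replicates 1, 2 and 3. Best-ranked summits of the replicates lay 0, 35 and 2 bp away. The summit was 109 bp downstream of the outermost start site, that of Chro-RE, and 107 bp upstream of the start site shared by Chro-RB, Chro-RC and Chro-RD. It thus stood between the outermost start site and the next. Being matched in all 3 replicates, it was kept by rule whichever replicate was left out. At least as strong a summit was found at 44 protein-coding genes, Chro included. Neighbouring genes that hold this same peak within 5 kb are among the 44. A stretch of 30 bases at this summit, chr3L:22878868-22878897 on the plus strand, shows the letters CGATA beginning 17 bp from the summit.
Chro summit: tattactgggagtgtattgcctgtCGATAg

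pzg, whose product Z4 is found with Chromator in interbands, had no summit. The gene (FBgn0259785, 3L 21286099 to 21290310) has 1 start site. Its nearest IDR summit, at 21304590, lay 14280 bp from the span and was itself strong, with a signal value of 994 and rank 60. That summit was 68 bp from a start site of CG11309.

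Cp190 had 1 weak summit at a start region that it shares with a divergent gene. Cp190 (FBgn0000283, 3R 15270432 to 15275241, minus strand) encodes a BTB-domain cofactor of several insulator proteins. Its summit at 15275562 had a signal value of 152 and rank 4637. It lay 321 bp upstream of the outermost Cp190 start site and 40 bp inside CG4338, a gene transcribed the other way. It ranked 2585 and 4732 in replicates 1 and 3. In replicate 2 the nearest best-ranked summit was 194 bp away, so by rule the summit was lost without replicate 1 and without replicate 3. The 280 bases between the start sites of Cp190 and CG4338, chr3R:15275242-15275521 on the plus strand, are shown because the summit can be assigned to either gene. Capitals mark CGATA and, near the CG4338 end, GGNGGCGC on the minus strand. The summit itself lies just past the CG4338 end of this stretch, and this CGATA is outside its 201 bp window.
Cp190 to CG4338: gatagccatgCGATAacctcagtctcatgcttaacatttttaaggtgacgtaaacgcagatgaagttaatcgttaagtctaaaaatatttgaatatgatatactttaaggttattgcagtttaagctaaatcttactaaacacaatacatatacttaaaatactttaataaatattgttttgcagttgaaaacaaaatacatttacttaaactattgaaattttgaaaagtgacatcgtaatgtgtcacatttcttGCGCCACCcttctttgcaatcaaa

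mod(mdg4), which encodes many BTB-domain isoforms that share their 5′ exons, had 2 summits, and both lay outside its span. The gene (FBgn0002781, 3R 21350846 to 21377401, minus strand) has 22 transcripts from 1 start site. A summit at 21378735, with a signal value of 407 and ranks of 679, 1348 and 1411 in replicates 1, 2 and 3, lay 1334 bp upstream of that start. It was closer to the start site of tin, 242 bp away, which encodes the cardiac homeodomain protein Tinman and is transcribed away from mod(mdg4). Beyond the 3′ end, a summit at 21348136 had a signal value of 274 and ranks of 2042, 1110 and 4883. This one lay in an intron of aus, 1465 bp from the nearest start site. Both were matched in all 3 replicates, so by rule they were kept whichever replicate was left out. The span itself held none, so the count for mod(mdg4) rests on the 5 kb flanks. The 201 bases around the summit near tin, chr3R:21378635-21378835 on the plus strand, are shown because this summit lies between genes. Capitals mark TGCATA.
Summit between mod(mdg4) and tin: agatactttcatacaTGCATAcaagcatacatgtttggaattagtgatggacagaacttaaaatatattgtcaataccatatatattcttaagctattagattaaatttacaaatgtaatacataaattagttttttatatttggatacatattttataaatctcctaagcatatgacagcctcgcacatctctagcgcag

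BEAF-32, which encodes a DNA-binding insulator protein, had 1 weak summit. It was matched in replicate 1 alone, so by rule it was lost whichever replicate was left out. The gene (FBgn0015602, 2R 14770469 to 14772630, plus strand) has 3 transcripts from 3 start sites. Its summit at 14771255 had a signal value of 143 and rank 5009, and lay 46 bp upstream of the start of BEAF-32-RB and 40 bp from a start site of the antisense transcript asRNA:CR42254. The nearby entries ranked 4097, 8515 and 13320 in replicates 1, 2 and 3. Replicate 1 alone had a best-ranked summit within 100 bp, whereas replicate 3 had its nearest 137 bp away and replicate 2 had none at the gene.

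CTCF and su(Hw), like pzg, had no summit in any list. CTCF (FBgn0035769, 3L 7353578 to 7356713) and su(Hw) (FBgn0003567, 3R 14304455 to 14308589) encode zinc-finger insulator proteins, and each has 1 start site. None of the 30000 entries of any of the 3 replicate lists or of the list called on pooled replicates lay in their spans or within 5 kb. The replicate and pooled lists were deposited with background entries included. Of all protein-coding genes, 18.3% had no entry under this rule. All 3 genes had an entry ranked below the best 6485 within 6 kb of the span. For CTCF the closest entries were 5288 bp from the span in replicate 1 and 5242 bp in replicate 3, at the promoter of qm with ranks of 8331 and 9329. For su(Hw) the closest was 5195 bp away in replicate 2, with rank 28142, and for pzg 5920 bp away in replicate 2, with rank 16684. The nearest IDR summit was 25064 bp from CTCF and 11921 bp from su(Hw). The one nearest to su(Hw) was intronic, near red, with a signal value of 406.

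Replicate support for the member summits was close to that of the whole list. Of the 23, 13 were matched in all 3 replicates, 6 in 2, 4 in 1 and 0 in none. Over all 6485 IDR summits, 55.2% were matched in all 3. The matched ones were mostly the strong ones: 9 of the 10 member summits ranked 1 to 1000 were matched in all 3, against 4 of the 13 ranked lower. The whole list gave 94.7% and 48% for the same divisions, so the lower-ranked members were matched less often, on few summits. The members also held a larger part of top-ranked summits, 10 of 23 against 1000 of 6485. Most of these 10 were at Trl and psq, and they include the Trl summits at 14756009 and 14756210, 201 bp apart. The genes were chosen with earlier results of these data known, so this is a description. The exception among the strong ones was the psq summit at 10564586. When any of the 30000 entries of a replicate list could serve as the match, 17 of the 23 were matched in all 3 replicates and 6 in 2. The share over all IDR summits was not taken for this looser rule.

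**Figure D3:**
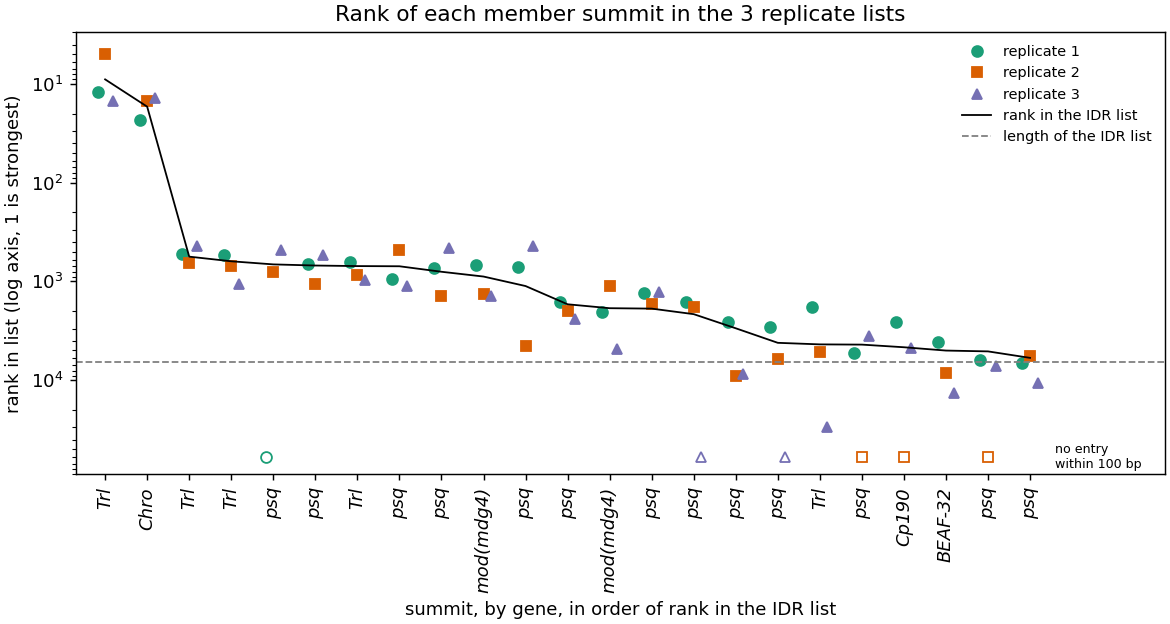
Rank of the best entry within 100 bp of each of the 23 member summits in the 3 replicate lists of 30000 entries (coloured points, log y axis with the strongest at the top), in order of rank in the IDR list (black line). Open symbols at the bottom mark replicates with no entry within 100 bp, and the dashed line marks the length of the IDR list, 6485. The leading Trl and Chro summits rank 5 to 23 in every replicate, and unmatched cases appear mainly at the weak end.

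Several member summits came in close pairs. Of the 23, 10 had their nearest IDR summit 190 to 250 bp away, 3 pairs at psq and 2 at Trl, which is 43.5%. In the whole list 24.6% did. No IDR summits were closer together than 199 bp, so the list has a lower limit on spacing. The pairs were 200, 204 and 206 bp apart at psq, and 201 and 218 bp apart at Trl. The Trl summits 218 bp apart lie in the same peak interval, and the intervals of each psq pair overlap. The 43.5% thus rests on pairs at 2 genes. Fragments were 200 to 800 bp long per the labels, and whether the summits of a pair are separate sites was not tested.

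The 6 motifs searched are the letters bound by insulator and promoter proteins, several of them encoded by the members. Windows of 201 bp centred on the summits were searched on both strands. GAGAG, the core bound by GAGA factor and Pipsqueak, was present at 2 of the 23 summits, against 23.2% of all IDR summits and 25% of windows centred on start sites of protein-coding genes. Both were psq summits, those at 10564586 and 10569008, and at 10569008 there were 3 overlapping matches. None of the Trl summits had it. CGATA, the core bound by BEAF-32, was present at 6 summits of 5 genes, against 20.3% of all IDR summits and 37.1% of start-site windows. Those included the Chro summit and the BEAF-32 summit, where it lay 76 bp away. TGCATA, part of the Su(Hw) consensus, was at 3 summits, against 16.3%. GGNGGCGC, from the CTCF consensus, was at the Cp190 summit and no other, against 1.3% of all IDR summits. Neither TATCGATA, which contains CGATA and is the element bound by DREF, nor GGTCACACT, bound by M1BP, was found at any. These were at 0.848% and 0.493% of all IDR summits. The counts depended on the window: with 200 bp on each side GAGAG was at 7 of the 23 summits, against 46.6% of all IDR summits, and CGATA at 9, against 35.9%. With 23 summits these counts are small, and a match of letters is not a bound site.

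**Figure D4:**
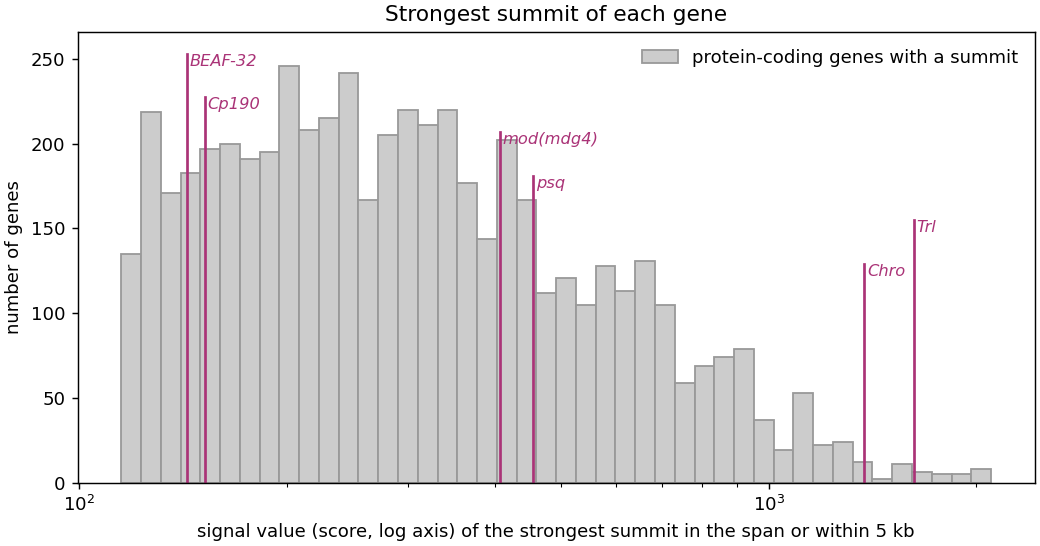
Histogram of the strongest signal value (x axis, a score on a log scale) among the IDR summits of each of the 5415 protein-coding genes with any, with the 6 members that have one marked by purple lines. Trl (1621) and Chro (1373) stand in the upper tail, psq (455) and mod(mdg4) (407) above the median of 284, and Cp190 (152) and BEAF-32 (143) near the lower end.

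Of 28 further genes listed for insulator, cofactor, cohesin and related chromatin proteins, 27 were matched in the annotation. Of these 27, 7 (25.9%) had an IDR summit in the span or within 5 kb and 4 (14.8%) a promoter summit, against 38.8% and 12.5% of all protein-coding genes. These shares were not divided by gene length, unlike the count for the members. With a span of 122124 bp, shep alone held 12 of the 27 summits at these genes. Among the 27 genes the strongest summit was an intronic one at JIL-1, the gene of a histone H3 kinase that binds Chromator. It had a signal value of 988 and ranks of 67, 56 and 73 in replicates 1, 2 and 3. Next came an intronic summit at shep, which encodes an RNA-binding protein known to affect gypsy insulator activity, with 720 and ranks of 290, 205 and 163. A summit with a signal value of 421 was counted for mor, a subunit of the Brahma complex, although its nearest start site was that of Hel89B. The last of the 4 strongest, with 379, was counted for a nucleoporin gene (FBgn0039120), and its nearest start site was that of mbc.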

How the data were processed

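Only dm6 peak lists were used. Per the deposited notes on parent files, the authors called 30000 entries on each replicate and on the pooled replicates, each list having 1 further parent file common to all whose content the notes do not describe, and derived the IDR list from these. No aligner or caller is named in the labels or notes read for this work. All 6485 IDR peaks are also the top of the pooled list. Signal value is a score deposited by the authors. The −log10 q-value that the authors deposited was not used. Summits are interval start plus the deposited offset, printed 1-based, and 86.4% lie at the interval centre. Genes, start sites and classes come from Ensembl release 115 (BDGP 6.54, dm6 coordinates) without transposable elements, and sequences from the RefSeq copy of Release 6, whose arms hold all peaks. Python 3.11.15 scripts were tested on planted summits. A summit no more than 500 bp from any gene's start was called a promoter summit; exonic classes came next, then introns, and what was left was intergenic. With 1 group there was no contrast, and no test was run. Alternatives were other flanks, distances, thresholds and each replicate left out. The shares by gene length and the count of close pairs were chosen after seeing the data. The named genes were all 9 members and, of the related genes, those with the 4 strongest summits, plus neighbours whose start site was the nearest to a summit. Members and lists were chosen with earlier results of these data known. The dm3 lists were not analysed here.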

Additional observations from a re-analysis of the deposited data

How the results depend on the processing

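The count of 6 of 9 genes with a summit, against 38.8% of all protein-coding genes, was 4 in the span without flanks (against 11.8%), 4 with the 3242 strongest peaks (28.2%), 4 with the 1000 strongest (12.8%), and 4 to 5 without single replicates (31.6% to 32.5%). The 23 summits fell to 10 with the 1000 strongest peaks and to between 14 and 16 without single replicates, sets that are smaller by construction. The 5 genes with a promoter summit became 3 with the 3242 strongest and 3 with the 1000 strongest peaks, and 3 to 4 without single replicates. For promoter summits the share of all protein-coding genes was not taken at these settings. Whether the members fell more than other genes therefore cannot be told. Matching in all 3 replicates held for 8 summits at 50 bp and 20 by overlap of intervals, against 13 at 100 bp. The share over all IDR summits was taken at 100 bp only, so the other counts cannot be set beside the whole list. With 50 bp on each side GAGAG was at 1 summit, CGATA at 3 and GGNGGCGC at 0, against 11.6%, 10.8% and 0.432% of all IDR summits. With 200 bp GAGAG was at 7, CGATA at 9 and TGCATA at 6, against 46.6%, 35.9% and 27.3%. Class counts moved by at most 1. The related genes with a summit numbered 6 to 7 without single replicates, a check chosen after seeing the data. No paired analysis was possible because there is a single group. Depth is unknown, and nothing here measures how far weak peaks depend on it.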

Other observations

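Below the IDR list, the pooled list held further weak entries at 5 of the 6 genes with a summit. It listed 31 more at psq, 6 at Trl, 3 each at Chro and BEAF-32, 1 at mod(mdg4) and 0 at Cp190, CTCF, su(Hw) and pzg. The best of them were at BEAF-32 (rank 6728, signal value 113) and Trl (rank 6806, 112), just past the last IDR peak at 116. The lists include background, so these entries need not be binding sites.

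The strongest Trl summit stood in AT-rich sequence. Its 201 bp window had a GC content of 25.9%, a level reached or undercut by 9.42% of IDR windows. The 23 member windows ranged from 25.9% to 53.2% with a median of 36.3%, against a median of 34.3% over all IDR windows and 42.3% over start sites of protein-coding genes.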
